A study of Mus musculus with 12 samples.

Results

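Caspases and their inhibitors were followed in mouse acute myeloid leukemia (AML) cells through 8 genes chosen by name: the caspase genes *Casp8*, *Casp9* and *Casp6*, the caspase-9 activator *Apaf1*, and the inhibitor genes *Cflar*, *Xiap*, *Birc2* and *Birc3*. All 8 were among the 15651 genes of the expression table, and all 8 had enough expression to be tested in every comparison. Leukemic spleens of 3 *D/F* mice and 3 *T/F* mice gave c-Kit+ cells whose RNA was sequenced after 6 hours in culture with CCS1477, an inhibitor of the bromodomains of p300 and CBP, or with DMSO as vehicle (12 libraries, 3 per group). *D/F* mice carried Dnmt3a fl/fl, Flt3 ITD/ITD and Mx1-Cre, and *T/F* mice carried Tet2 fl/fl with the same Flt3 ITD/ITD and Mx1-Cre, so that the internal tandem duplication of *Flt3* and the Cre transgene were shared by every library. CCS1477 was used at 4 μM in *D/F* cells and at 2 μM in *T/F* cells, so genotype and dose cannot be told apart in any comparison of the responses. Mx1-Cre was not induced, and its leaky expression deleted 1 or both floxed alleles spontaneously, so the remaining *Dnmt3a* or *Tet2* function of a mouse is not fixed by its label. Donor mice were moribund, cells were enriched on CD117 beads and cultured with stem cell factor, IL-6 and IL-3, and the vehicle and CCS1477 samples with the same replicate number came from the same mouse.

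Caspases are proteases that are made as inactive precursors and carry out apoptosis. Caspase-8 is activated at death receptors, caspase-9 is activated on the apoptosome that Apaf-1 builds once cytochrome c has left the mitochondria, and both pass the signal to executioner caspases. Inhibitors act at each step. c-FLIP, the product of *Cflar*, occupies caspase-8 at the receptor, and XIAP binds caspase-9 and some of the executioner caspases directly. cIAP1 and cIAP2, the products of *Birc2* and *Birc3*, are ubiquitin ligases of the TNF receptor complex. In myeloid leukemia this balance is of interest because venetoclax and related drugs act upstream of caspase-9.

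Libraries of a group were correlated at 0.945 to 0.991 across genes. *D/F* replicate 2 stood apart in both treatments, with the summed TPM (a relative abundance of transcripts, corrected for their length) of 8 leukemic progenitor markers at 4031 with DMSO against 8050 and 10352 in the other *D/F* mice. These 8 markers (*Kit*, *Cd34*, *Flt3*, *Myb*, *Mpo*, *Elane*, *Prtn3* and *Ctsg*) were present in every group, and their sum was lower with CCS1477 in each mouse, at 882 to 4338 against 4031 to 10352 in *D/F* cells and 1756 to 3085 against 4403 to 6624 in *T/F* cells. The summed monocyte and macrophage markers, 7 of 8 in the table without *C1qa*, were also lower, at 41.0 to 45.8 against 86.1 to 116 in *D/F* cells and 50.3 to 68.3 against 124 to 175 in *T/F* cells. Of these, *Ms4a7* did not fall, with means of 4.00 and 4.00 TPM in *D/F* and 3.60 and 3.86 TPM in *T/F* cells (DMSO and CCS1477). The 8 neutrophil markers summed to 1667 to 9340 against 2713 to 9409 in *D/F* cells and to 2526 to 6932 against 2369 to 7197 in *T/F* cells. Their sum was higher with CCS1477 in replicate 3 of each genotype and lower in the other mice. The T and NK cell markers, 4 of 8 in the table, summed to 28.7 to 40.7 against 126 to 176 in *D/F* cells and to 30.1 to 38.9 against 81.3 to 117 in *T/F* cells, and of these *Nkg7*, a cytotoxic granule gene, fell from 123 ± 31.5 to 18.3 ± 11.3 TPM and from 79.9 ± 18.0 to 18.0 ± 5.82 TPM, while *Cd3d*, *Cd4* and *Cd8a* did not pass in either genotype (adjusted p 0.339 to 0.795). Of the B cell markers, 5 of 8 in the table, *Ighm* rose in *T/F* cells from 36.4 ± 4.62 to 102 ± 13.6 TPM, while *Cd79b* fell there from 16.6 ± 1.41 to 12.2 ± 1.25 TPM and *Pax5* from 1.62 ± 0.684 to 0.606 ± 0.165 TPM (SD, n = 3). The part of these shifts in the results below was not tested, and in bulk RNA fewer cells of a type and less RNA per cell cannot be told apart. The defining lymphoid markers *Cd3e*, *Cd3g*, *Trac*, *Ncr1*, *Cd79a* and *Ms4a1* were not listed in the table.

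By the mean of all 12 libraries, of both treatments, the 8 genes were expressed above the median gene of the table, from *Birc2* at the percentile 57.8 to *Birc3* at 90.9. On the TPM scale, which is per transcript length, the mean of the 6 DMSO libraries ran from 111 ± 48.5 for *Birc3* through 81.6 ± 4.34 for *Casp8*, 66.6 ± 8.76 for *Cflar*, 45.2 ± 5.06 for *Apaf1*, 44.4 ± 7.0 for *Xiap*, 33.3 ± 8.54 for *Casp6* and 24.8 ± 4.28 for *Casp9* to 24.1 ± 8.0 for *Birc2* (SD, n = 6). Of neighbours in this order, only *Cflar* and *Apaf1* had ranges that did not overlap, with a lowest value of 58.0 TPM for *Cflar* and a highest of 51.9 TPM for *Apaf1*. The 2 IAP genes that lie side by side, *Birc2* and *Birc3*, stood at the bottom and the top of the order. *Casp8* varied least between the 6 mice, with a coefficient of variation of 5.32%, and *Birc3* varied most, with 43.7%.

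**Figure D1:**
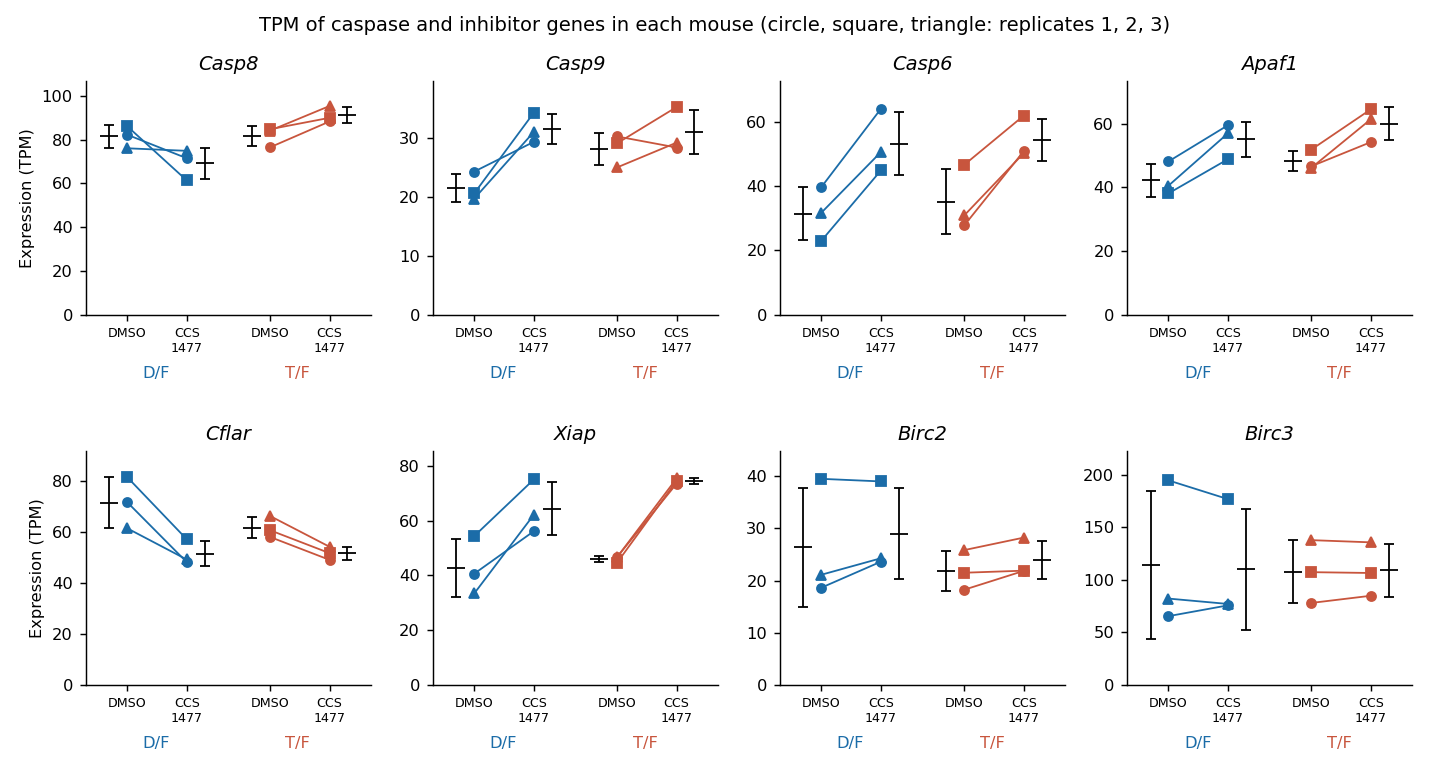
TPM (vertical axes, linear, from 0) of the 8 genes in each of the 12 libraries, with lines joining the DMSO and CCS1477 samples of 1 mouse and black bars for the mean ± SD of 3 mice. All 6 lines rise for Casp6, Apaf1 and Xiap and all 6 fall for Cflar, whereas the lines of Birc3 are nearly flat and far apart.

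The genes that responded to CCS1477 did so by less than 2-fold. Over both genotypes, with 6 mice and genotype as a covariate, 5 of the 8 genes passed an adjusted p of 0.05 (limma, Benjamini-Hochberg over 15583 genes): *Casp6*, *Xiap*, *Apaf1* and *Casp9* rose and *Cflar* fell. The share of all genes that passed in this comparison was 45.3% (25.8% higher and 19.6% lower), and a count of 5 among 8 genes is not far from that share. With the mouse as a block the same 5 genes passed, against 60.3% of all genes. None of the 8 was above 2-fold, where 8.8% of all genes were. The median log2 fold change was 0.24 over the 8 genes and 0.07 over all genes tested. *Casp6*, *Apaf1* and *Xiap* were higher with CCS1477 in 6 of 6 mice, as were 31.8% of all genes, and *Cflar* was lower in 6 of 6 mice, as were 24.2% of all genes.

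Within *T/F* cells, 4 of the 8 genes passed, with *Casp6*, *Apaf1* and *Xiap* higher and *Cflar* lower, against a background of 43.4% of the 15256 genes tested (25.8% higher and 17.6% lower). With the mouse as a block the same 4 genes passed, against 54.1% of all genes. Only *Xiap* passed in every fit of *T/F* cells that left out a mouse, which kept 1, 2 and 1 of the 8 genes without replicates 1, 2 and 3, respectively, against 22.8%, 20.9% and 33.7% of all genes. Within *D/F* cells, 0 of the 8 genes passed in the limma fit without the mouse, against a background of 11.6% of 15501 genes, although 4 of the 8 had an unadjusted p under 0.05, as did 30.4% of all genes. With the mouse as a block, 5 of the 8 passed in *D/F* cells (*Casp9*, *Casp6*, *Apaf1* and *Xiap* higher, *Cflar* lower), against a background of 39.3% in that fit. Without *D/F* replicate 2, the mouse whose libraries stood apart, 1 of the 8 passed in *D/F* cells, namely *Xiap*, against 24.6% of all genes, and 4 of the 8 over both genotypes, with *Casp9* no longer among them, against 55.4% of all genes.

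**Figure D2:**
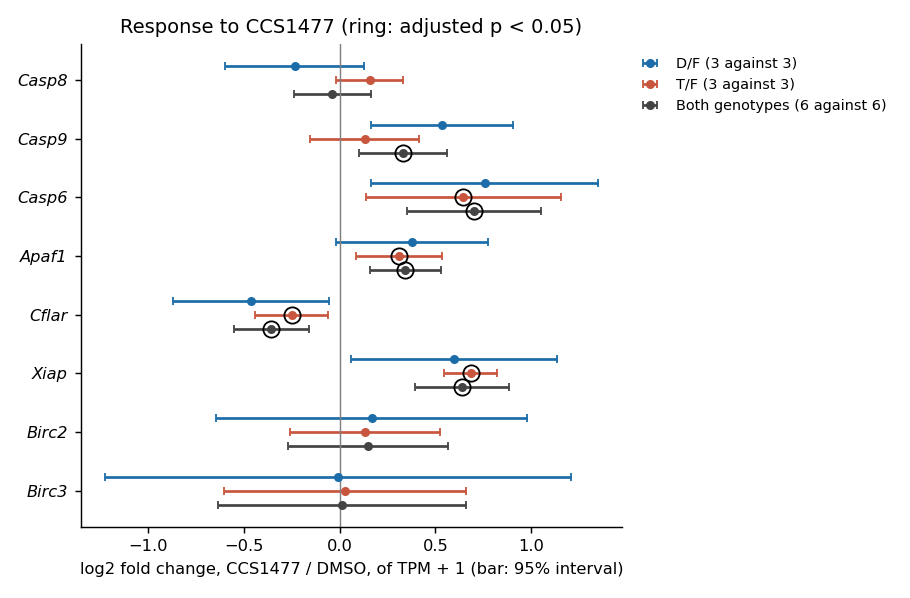
Log2 fold change of TPM + 1, CCS1477 over DMSO (horizontal axis), for each of the 8 genes in D/F mice, in T/F mice and over both, with 95% intervals from the limma fits without the mouse as a block and a ring where the adjusted p is under 0.05. Rings stand on 4 genes in T/F cells, on 5 over both genotypes and on 0 in D/F cells, whose intervals are wider.

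Promoter sequence is shown for 4 of the genes: *Casp6* and *Xiap*, which had the largest rises, and the neighbours *Birc2* and *Birc3*, whose levels differed more between mice than between treatments. All 8 genes matched a RefSeq start in GRCm38.p6 by symbol, with 11 windows of 250 bases before a start among the 32851 windows of all genes. The GC box GGGCGG, searched on both strands, was found before a start of 5 of the 8 genes (*Casp6*, *Casp9*, *Apaf1*, *Xiap* and *Birc2*) and in 32.74% of all windows. The cAMP response element TGACGTCA, the site for which the CREB-binding protein CBP was named through its partner CREB, was found for *Birc2* alone, and in 1.55% of all windows. The ETS core CCGGAA was found for 3 of the 8 genes and in 12.03% of windows, CCAAT for 1 of the 8, *Casp8*, and in 33.85%, and the NF-kB motif for 0 of the 8 and in 7.25%. No match to 1 of these motifs overlapped a match to another in the windows of the 8 genes. These are matches of letters and not measured binding sites. A gene was counted if any of its windows had a match, whereas the shares are per window. The counts and shares are therefore not like for like, since a gene with more windows can match more often.

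The windows read 5′ to 3′ on the strand of the gene, stop before the first base that GENCODE vM21 places in an exon, and have capitals for the GC box in *Casp6* and *Xiap*, the cAMP response element in *Birc2* and the ETS core, which lies on the opposite strand, in *Birc3*. The *Casp6* window is chr3:129901165-129901414 (plus strand), with 58.4% G and C. The *Xiap* window is chrX:42067586-42067835 (plus strand), lies before an internal start of the gene, and has 46.4% G and C. The *Birc2* window is chr9:7837065-7837307 (minus strand), with 67.9% G and C, and the *Birc3* window is chr9:7873187-7873420 (minus strand), with 44.9%.
Casp6: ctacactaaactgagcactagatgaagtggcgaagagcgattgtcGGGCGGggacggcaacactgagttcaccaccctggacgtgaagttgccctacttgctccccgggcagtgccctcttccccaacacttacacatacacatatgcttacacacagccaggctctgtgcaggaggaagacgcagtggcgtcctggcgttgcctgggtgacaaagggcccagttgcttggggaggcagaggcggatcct
Xiap: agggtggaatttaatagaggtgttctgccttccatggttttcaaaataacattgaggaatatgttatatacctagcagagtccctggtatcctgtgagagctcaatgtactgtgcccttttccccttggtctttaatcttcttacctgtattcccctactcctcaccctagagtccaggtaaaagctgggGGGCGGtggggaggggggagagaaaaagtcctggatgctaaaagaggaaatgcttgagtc
Birc2: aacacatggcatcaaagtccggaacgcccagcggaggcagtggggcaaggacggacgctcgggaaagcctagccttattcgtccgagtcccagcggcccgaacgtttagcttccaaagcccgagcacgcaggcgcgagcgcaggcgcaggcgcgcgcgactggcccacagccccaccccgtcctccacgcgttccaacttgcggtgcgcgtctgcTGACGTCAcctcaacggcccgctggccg
Birc3: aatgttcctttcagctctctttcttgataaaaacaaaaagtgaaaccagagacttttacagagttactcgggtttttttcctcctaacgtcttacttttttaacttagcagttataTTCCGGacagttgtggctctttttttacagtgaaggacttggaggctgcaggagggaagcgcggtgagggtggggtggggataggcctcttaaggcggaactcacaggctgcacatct

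*Casp8* (ENSMUSG00000026029, GRCm38 chromosome 1, 58795374 to 58847503, plus strand) encodes the initiator caspase of the death receptor route. Its 3 *D/F* libraries had 82.2, 86.1 and 76.0 TPM with DMSO and 71.5, 61.4 and 74.9 TPM with CCS1477 (replicates 1, 2 and 3), so that it was lower in each mouse and the groups did not overlap. In *T/F* cells it had 76.5, 84.7 and 84.1 TPM with DMSO and 88.3, 90.0 and 95.4 TPM with CCS1477, so that it was higher in each mouse and again the groups did not overlap. Neither response passed: it had a log2 fold change of -0.23 in *D/F* cells (SE 0.15, adjusted p 0.345) and 0.16 in *T/F* cells (SE 0.07, adjusted p 0.128). Over both genotypes it was -0.04 (95% interval -0.24 to 0.16). With quantile-normalized libraries the *T/F* value, 0.20, had an adjusted p of 0.0415. With libraries rescaled to a common median the *T/F* value was 0.08, with an adjusted p of 0.387.

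*Casp9* (ENSMUSG00000028914, chromosome 4, 141793612 to 141815976, plus strand) encodes the initiator caspase of the mitochondrial route. *D/F* libraries had 24.2, 20.6 and 19.7 TPM with DMSO and 29.3, 34.2 and 31.0 TPM with CCS1477, a rise in each mouse without overlap of the groups. *T/F* libraries had 30.2, 29.0 and 25.0 TPM with DMSO and 28.3, 35.2 and 29.2 TPM with CCS1477, groups that overlapped, with 2 mice higher and 1 lower. CCS1477 gave a log2 fold change of 0.53 in *D/F* cells (SE 0.15, adjusted p 0.0731, and 0.0355 with the mouse as a block) and of 0.13 in *T/F* cells (SE 0.12, adjusted p 0.398). Over both genotypes *Casp9* rose by a log2 fold change of 0.33 (SE 0.10, adjusted p 0.0231). This call was lost without *D/F* replicate 1, 2 or 3 or *T/F* replicate 2, with adjusted p of 0.0522, 0.0559, 0.0860 and 0.0510 in these fits, and with libraries rescaled to a common median, where it was 0.0910.

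*Apaf1* (ENSMUSG00000019979, chromosome 10, 90989311 to 91082770, minus strand) encodes the scaffold on which caspase-9 is activated. It had 48.1, 38.1 and 40.5 TPM with DMSO and 59.5, 48.8 and 57.0 TPM with CCS1477 in *D/F* cells. In *T/F* cells it had 46.6, 51.9 and 46.1 TPM with DMSO and 54.2, 64.5 and 61.4 TPM with CCS1477. The treatment groups did not overlap in either genotype, and the fold within a mouse lay between 1.16 and 1.41. Its log2 fold change was 0.38 for *D/F* (SE 0.16, adjusted p 0.181, and 0.0368 with the mouse as a block), and *Apaf1* rose by 0.31 on the log2 scale in *T/F* cells (SE 0.09, adjusted p 0.0381) and by 0.34 over both (SE 0.08, adjusted p 0.00643). With libraries rescaled to a common median the latter 2 calls were lost (adjusted p 0.112 and 0.0760). The *T/F* call was also lost without replicate 1, 2 or 3 (adjusted p 0.0847, 0.114 and 0.183) and in a shared fit of 4 groups (0.0968). The call over both genotypes was kept in each fit that left out a mouse (highest adjusted p 0.0333).

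*Casp6* (ENSMUSG00000027997, chromosome 3, 129901425 to 129914103, plus strand) encodes an executioner caspase that cleaves nuclear lamins, and had the largest rise of the 8 genes over both genotypes. *D/F* libraries had 39.7, 23.0 and 31.8 TPM with DMSO and 64.1, 44.9 and 50.7 TPM with CCS1477. *T/F* libraries had 27.8, 46.7 and 30.9 TPM with DMSO and 50.9, 62.0 and 50.3 TPM with CCS1477. Treated and vehicle groups did not overlap in either genotype, and the fold within a mouse ran from 1.33 to 1.95. The mice differed from each other by as much, with a highest DMSO value 2.03 times the lowest. In *D/F* cells the log2 fold change was 0.76 (SE 0.25, adjusted p 0.0956, and 0.0111 with the mouse as a block). *Casp6* rose by 0.65 on the log2 scale in *T/F* cells (SE 0.21, adjusted p 0.0485) and by 0.70 over both genotypes (SE 0.16, adjusted p 0.00415). The *T/F* call lies next to the threshold and was lost with a pseudocount of 0.1, without the filter, with either rescaling, in a shared fit of 4 groups, and without replicate 1 or 3 (adjusted p 0.0502 to 0.183), and was kept with the mouse as a block (adjusted p 0.0121).

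*Cflar* (ENSMUSG00000026031, chromosome 1, 58711508 to 58758884, plus strand) encodes the caspase-8 inhibitor c-FLIP and was the gene of the 8 that fell. It had 71.7, 81.5 and 61.4 TPM with DMSO and 48.2, 57.1 and 49.2 TPM with CCS1477 in *D/F* cells. In *T/F* cells it had 58.0, 60.7 and 66.3 TPM with DMSO and 49.0, 51.7 and 54.2 TPM with CCS1477. Each mouse had less *Cflar* after CCS1477, with folds of 0.672 to 0.801 in *D/F* mice and 0.818 to 0.852 in *T/F* mice, and the treatment groups did not overlap. In *D/F* cells the log2 fold change was -0.46 (SE 0.17, adjusted p 0.125, and 0.0275 with the mouse as a block). *Cflar* fell by 0.25 on the log2 scale in *T/F* cells (SE 0.08, adjusted p 0.0440) and by 0.36 over both genotypes (SE 0.09, adjusted p 0.00683). The *T/F* call was lost without replicate 1, 2 or 3 (adjusted p 0.139, 0.191 and 0.0905) and in a shared fit of 4 groups (0.167). The fall over both genotypes passed in each fit that left out a mouse and under each other setting tried for that comparison except the limit of 2-fold, as did the rises of *Casp6* and *Xiap*.

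*Cflar* and *Casp8* lie on the same strand of chromosome 1 with a gap of 36489 bp, in which the annotation places 1 gene, *Gm3841*. The ratio of *Cflar* to *Casp8* within a library was 0.872, 0.946 and 0.808 with DMSO and 0.674, 0.931 and 0.657 with CCS1477 in *D/F* replicates 1, 2 and 3. In *T/F* replicates it was 0.759, 0.716 and 0.788 with DMSO and 0.555, 0.574 and 0.568 with CCS1477. The ratio was lower after CCS1477 in all 6 mice, but in *D/F* replicate 2, where *Casp8* itself was lowest, it differed little. In TPM, *Cflar* stayed below *Casp8* in all 12 libraries.

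*Xiap* (ENSMUSG00000025860, chromosome X, 42059679 to 42109656, plus strand) encodes a direct inhibitor of caspase-9 and some of the executioner caspases. *D/F* libraries had 40.6, 54.4 and 33.4 TPM with DMSO and 56.1, 75.0 and 62.1 TPM with CCS1477. *T/F* libraries had 46.7, 44.6 and 46.6 TPM with DMSO and 73.5, 74.5 and 75.4 TPM with CCS1477. The *T/F* groups were the tightest of any of the 8 genes, with SD of 1.18 and 0.946 TPM around means of 46.0 and 74.5 TPM (n = 3). *Xiap* rose by a log2 fold change of 0.68 in *T/F* cells (SE 0.06, adjusted p 0.000698) and of 0.64 over both genotypes (SE 0.11, adjusted p 0.000773), the lowest adjusted p of the 8 genes in each. In *D/F* cells the log2 fold change was 0.60 (SE 0.22, adjusted p 0.133, 0.0279 with the mouse as a block and 0.0439 without replicate 2). Over both genotypes *Xiap* thus moved in the same direction as *Casp9*, whose own rise did not pass in *T/F* cells (limma, adjusted p 0.398). The ratio of *Xiap* to *Casp9* within a library was higher after CCS1477 in all 3 *T/F* mice, with means of 1.65 ± 0.189 and 2.43 ± 0.273 (SD, n = 3). For *D/F* mice the means were 2.01 ± 0.553 and 2.04 ± 0.141, and replicate 2 went from 2.64 to 2.19.

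*Birc2* (ENSMUSG00000057367, chromosome 9, 7818227 to 7837064) and *Birc3* (ENSMUSG00000032000, chromosome 9, 7848699 to 7873186) encode cIAP1 and cIAP2 and lie on the minus strand with a gap of 11634 bp and 0 annotated genes between them. *Birc2* had 18.6, 39.5 and 21.1 TPM with DMSO and 23.6, 39.0 and 24.3 TPM with CCS1477 in *D/F* cells, and 18.2, 21.5 and 25.8 TPM with DMSO and 21.8, 21.9 and 28.2 TPM with CCS1477 in *T/F* cells. The treatment groups overlapped in both genotypes. The log2 fold change was 0.15 over both genotypes (95% interval -0.27 to 0.57, adjusted p 0.557, and 0.0653 with the mouse as a block), with 5 of 6 mice higher. The interval is from the fit without the mouse (SE 0.19), and the SE with the block was 0.06.

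*Birc3* had 65.5, 194.9 and 82.2 TPM with DMSO and 75.8, 177.0 and 77.1 TPM with CCS1477 in *D/F* cells, and 78.1, 107.4 and 137.9 TPM with DMSO and 84.9, 106.6 and 135.8 TPM with CCS1477 in *T/F* cells. It was higher in 2 of 6 mice, and the fold within a mouse lay between 0.908 and 1.16, while the highest DMSO value was 2.98 times the lowest. The log2 fold change was 0.01 over both genotypes (95% interval -0.64 to 0.66, adjusted p 0.981, and 0.887 with the mouse as a block). This interval too is from the fit without the mouse (SE 0.30), and the SE with the block was 0.06. *D/F* replicate 2, which stood apart in its progenitor markers, had the highest *Birc2* and *Birc3* among the 6 libraries of each treatment, and its megakaryocyte and platelet markers (5 of 6 in the table, without *Gp1bb*) summed to 218 TPM with DMSO against 36.5 and 52.0 TPM in the other *D/F* mice. Its neutrophil markers (8 of 8 in the table) summed to 2713 TPM with DMSO against 9409 and 6282 TPM in the other *D/F* mice. In *T/F* replicates 1, 2 and 3 with DMSO, the neutrophil markers summed to 7197, 5699 and 2369 TPM. The megakaryocyte and platelet markers there summed to 59.3, 54.4 and 51.6 TPM. The part of the cells of either marker list in the levels of *Birc2* and *Birc3* was not tested. The ratio of *Birc3* to *Birc2* varied less than *Birc3* itself, from 3.51 to 5.34 over the 6 DMSO libraries, and was lower after CCS1477 in all 6 mice.

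**Figure D3:**
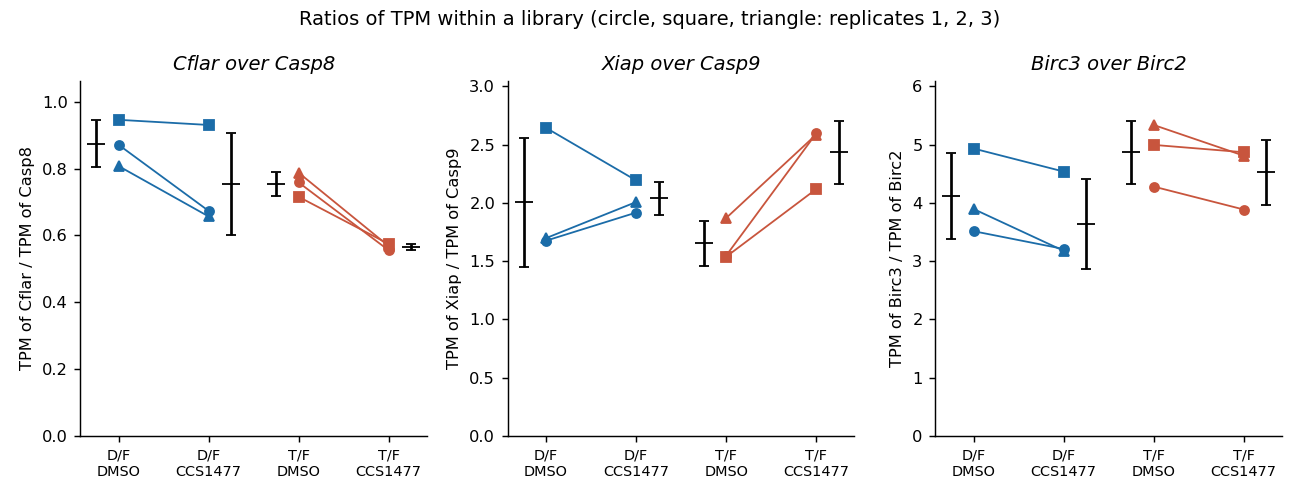
Ratio of the TPM of 2 genes within a library (vertical axes, linear, from 0) for Cflar over Casp8, Xiap over Casp9 and Birc3 over Birc2, with lines joining the DMSO and CCS1477 samples of 1 mouse and black bars for the mean ± SD of 3 mice. Cflar over Casp8 falls in all 6 mice and ends at 0.555 to 0.574 in the 3 T/F mice.

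The summed TPM of the 4 inhibitor genes was 255 ± 99.9 with DMSO and 255 ± 81.0 with CCS1477 in *D/F* cells and 237 ± 37.9 and 259 ± 32.4 in *T/F* cells (SD, n = 3). Within *D/F* replicates 1, 2 and 3 it went from 196 to 204, from 370 to 348 and from 198 to 213. The equal *D/F* means thus cover a fall in replicate 2 and rises in the others. Within *T/F* replicates 1, 2 and 3 it went from 201 to 229, from 234 to 255 and from 277 to 294. *Birc3* was the largest part of each sum of the inhibitors by its mean, and with CCS1477 the mean of *Xiap* was above that of *Cflar* in both genotypes (64.4 against 51.5 TPM and 74.5 against 51.6 TPM). For *Casp8*, *Casp9*, *Casp6* and *Apaf1* the sum was 177 ± 15.3 and 209 ± 17.9 in *D/F* cells and 193 ± 16.8 and 237 ± 15.0 in *T/F* cells.

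The genotypes and doses were compared next, in the response and in each treatment. None of the 8 genes passed the test of the difference between the responses, in which limma called 0 of 15583 genes (lowest adjusted p 0.768, with 659 genes at an unadjusted p under 0.05). The difference for *Casp8*, *T/F* minus *D/F*, was 0.39 on the log2 scale (SE 0.15, 95% interval 0.06 to 0.72, adjusted p 0.9999, and 0.287 with the mouse as a block). *Casp8* was the 1 gene of the 8 that moved one way in all 3 *D/F* mice and the opposite way in all 3 *T/F* mice, a pattern of 2.06% of all genes. For *Casp9* the difference was -0.40 (SE 0.18, 95% interval -0.80 to 0.00, adjusted p 0.9999, and 0.338 with the mouse as a block). For *Xiap*, *Apaf1*, *Casp6* and *Cflar*, which moved the same way in all 6 mice, the difference was 0.09 (95% interval -0.43 to 0.60), -0.07 (-0.46 to 0.32), -0.11 (-0.85 to 0.63) and 0.21 (-0.17 to 0.60), respectively. These intervals do not show that the genotypes respond alike.

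With DMSO alone, 0 of the 8 genes passed between *T/F* and *D/F* cells, where 0.0328% of 15265 genes did. The groups did not overlap for *Casp9* alone of the 8, which had 25.0 to 30.2 TPM in *T/F* and 19.7 to 24.2 TPM in *D/F* cells (log2 fold change 0.37, SE 0.14, adjusted p 0.749), and such separation was seen in 12.6% of all genes. With CCS1477, 0 of the 8 passed, where 0.0329% of 15199 genes did. The treated groups did not overlap for *Casp8* alone, which had 88.3 to 95.4 TPM in *T/F* and 61.4 to 74.9 TPM in *D/F* cells (log2 fold change 0.40, SE 0.12, adjusted p 0.335), and such separation was seen in 20.3% of all genes. Of the treatment comparisons, the groups did not overlap for 6 of the 8 genes in *D/F* cells and for 5 of the 8 in *T/F* cells, where 36.6% and 56.1% of all genes were separated. An exact two-sided permutation test of 3 libraries against 3 gave p = 0.1, the smallest it can give, for each of these genes.

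Other genes of the caspase pathway were taken from 9 lists of 88 genes, of which 81 were in the table and tested. *Casp14*, *Birc7* and *Naip1* were not among them. In *T/F* cells 22 of the 81 rose and 21 fell, and in *D/F* cells 5 rose and 8 fell. With the mouse as a block these counts were 28 and 27 in *T/F* cells and 13 and 24 in *D/F* cells. Over both genotypes 21 rose and 19 fell, with a median log2 fold change of 0.01 beside 0.07 over all genes. In both genotypes, 12 of the 81 passed in the same direction, 5 higher and 7 lower, as did 10.7% of all genes tested in both. The shares of all genes for the other counts are those given above, namely 43.4% in *T/F* cells, 11.6% in *D/F* cells and 45.3% over both, and 54.1% and 39.3% with the block in *T/F* and *D/F* cells.

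Among the other caspase genes, *Casp2*, the caspase of the PIDDosome, rose over both genotypes by a log2 fold change of 0.32 (SE 0.10, adjusted p 0.0271). The inflammatory caspases *Casp1* and *Casp4* had 0.13 and 0.12 (adjusted p 0.337 and 0.710), and *Casp12* had -0.85 (adjusted p 0.0898). *Casp1* rose in *T/F* cells, where its log2 fold change was 0.22 (adjusted p 0.0232). The fall of *Casp12* passed in *D/F* and *T/F* cells with the mouse as a block (adjusted p 0.0246 and 0.00588). *Casp12* was low, at 5.58 ± 4.92 and 1.80 ± 1.89 TPM with DMSO and CCS1477 in *D/F* cells. In *T/F* cells it had 1.99 ± 0.854 and 1.05 ± 0.467 TPM (SD, n = 3). *D/F* replicate 2 had 11.1 TPM with DMSO, against 1.79 and 3.82 TPM in replicates 1 and 3.

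Of the other IAP family genes, 1 of 5 passed over both genotypes. *Birc5*, which encodes survivin and acts in mitosis, rose by a log2 fold change of 0.42 (SE 0.16, adjusted p 0.0498), next to the threshold. *Birc6* had -0.07, *Naip2* -0.24, *Naip5* 0.41 and *Naip6* 0.27, with adjusted p of 0.0753 to 0.755. *Naip5*, a sensor of bacterial flagellin, rose in *T/F* cells (0.37, adjusted p 0.0206). With the mouse as a block *Birc5* passed in *D/F* cells (adjusted p 0.0454) and *Naip6* in *T/F* cells (0.0335). NAIP genes are near copies of each other, so their separate values are uncertain.

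Among antagonists and partners of XIAP, 2 of 7 rose and 2 fell over both genotypes, and the mitochondrial antagonists went in opposite directions. *Diablo*, which encodes SMAC, had 64.5 ± 5.67 and 106 ± 13.3 TPM with DMSO and CCS1477 in *D/F* cells and 64.7 ± 4.50 and 95.9 ± 2.91 TPM in *T/F* cells, and passed in each (adjusted p 0.0418 and 0.00243). *Htra2*, a serine protease of the mitochondria that binds IAPs once released, fell from 94.6 ± 13.2 to 38.5 ± 10.7 TPM in *D/F* cells (log2 fold change -1.30, adjusted p 0.0237) and from 89.1 ± 8.91 to 40.8 ± 3.76 TPM in *T/F* cells (-1.11, adjusted p 0.00102).

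Upstream of caspase-9, 1 of 10 apoptosome and mitochondrial release genes rose and 3 fell over both genotypes. *Bid*, whose product is cut by caspase-8 and links the receptor route to mitochondria, fell by 1.04 on the log2 scale in *D/F* cells and by 0.53 in *T/F* cells (adjusted p 0.0241 and 0.0186). *Apip*, which encodes an Apaf-1 interacting protein of the methionine salvage pathway, rose by 0.76 and 0.68 (adjusted p 0.0298 and 0.0202). Of death receptors and adaptors, 4 of 10 rose and 2 fell. *Tnfrsf1b*, the receptor TNFR2 at which cIAP1 and cIAP2 act, fell by 0.90 and 0.87 in *D/F* and *T/F* cells (adjusted p 0.0417 and 0.00667), and *Tradd*, the adaptor of TNFR1, rose by 0.66 and 0.63 (adjusted p 0.0341 and 0.00243).

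Of 17 TRAF and RIPK partners of the IAPs, 6 rose and 2 fell over both genotypes. *Ripk2*, a kinase of NOD signaling that IAPs ubiquitinate, rose from 11.1 ± 1.42 to 29.2 ± 2.51 TPM in *D/F* cells and from 12.8 ± 1.99 to 22.4 ± 0.137 TPM in *T/F* cells (adjusted p 0.00850 and 0.00312). *Mlkl*, the executor of necroptosis, which caspase-8 restrains, fell from 62.5 ± 7.85 to 27.8 ± 6.93 TPM and from 59.5 ± 6.08 to 38.6 ± 2.97 TPM (adjusted p 0.0282 and 0.00545). Of 2 PIDDosome genes, 1 fell over both genotypes. Of 14 genes for caspase substrates, 3 rose and 3 fell, and *Sptan1*, which encodes a spectrin cut by caspases, rose by 0.82 and 0.61 in *D/F* and *T/F* cells (adjusted p 0.0188 and 0.000912).

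Inflammasome genes, a list of genes upstream and downstream of caspase-1, had the lowest median of the 9 lists. Over both genotypes 6 of 10 fell and 2 rose, with a median log2 fold change of -0.57. *Mefv*, the pyrin sensor, fell from 7.63 ± 2.89 to 0.655 ± 0.347 TPM in *D/F* cells and from 5.84 ± 1.21 to 0.867 ± 0.290 TPM in *T/F* cells (adjusted p 0.00834 and 0.000998). *Nlrp1b*, another sensor, fell from 6.92 ± 4.67 to 0.676 ± 0.308 TPM and from 10.2 ± 3.79 to 2.41 ± 0.602 TPM (adjusted p 0.0420 and 0.00446). The monocyte and macrophage markers were lower in the same libraries by the values given above, and their part in the falls was not tested.

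**Figure D4:**
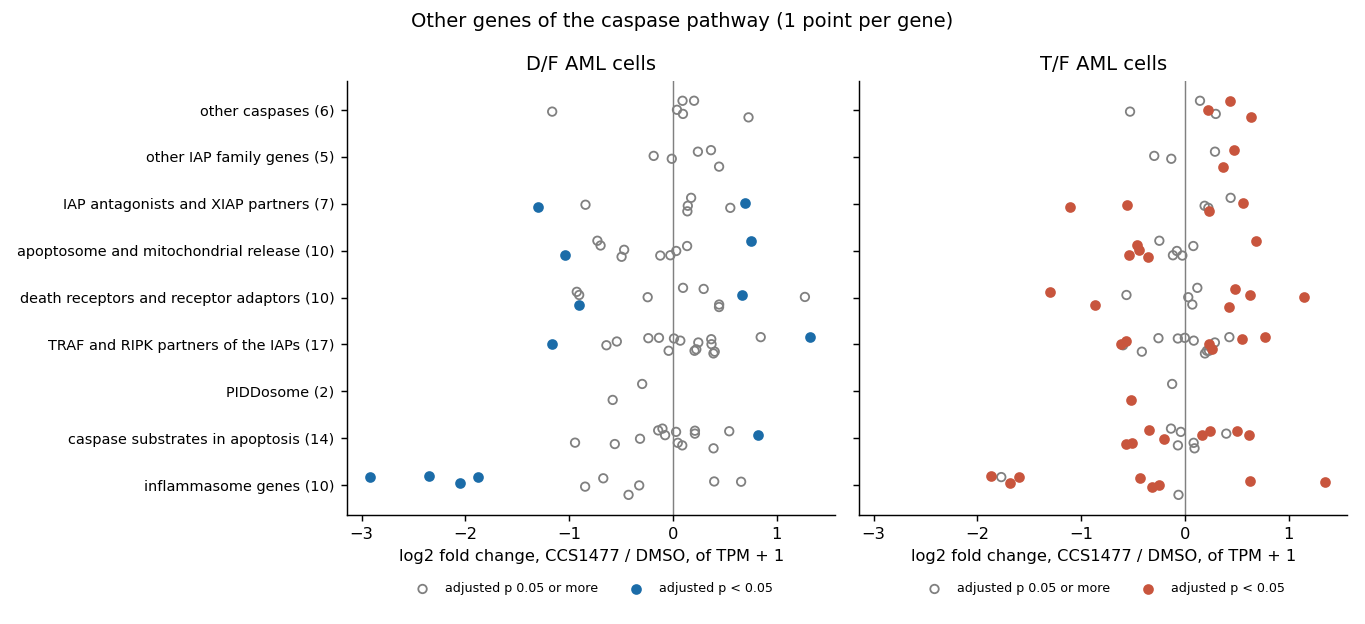
Log2 fold change of TPM + 1, CCS1477 over DMSO (horizontal axes), for the 81 other pathway genes by list, in D/F cells (left) and T/F cells (right), with 1 point per gene and filled points for an adjusted p under 0.05. Filled points reach furthest to the left among inflammasome genes and are fewer in D/F cells, than in T/F cells.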

How the data were processed

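Each library has 1 column of gene TPM, which the authors deposited on a linear scale and without pooling. The submitters' processing notes name kallisto and mm10, and the methods name AltAnalyze; versions and annotation are not given in the sources used here. The sample records name both ribosomal RNA depletion and an mRNA kit. No gene has its maximum below 2.00 TPM, so genes of low expression had been left out. TPM keeps no read numbers: depth is unknown, no counting interval is given, and precision is the spread between 3 mice. All 12 columns were matched to samples by mouse, genotype and treatment; column heads and sample records give the same mouse numbers, though a table of the study has another number for 1 library of D/F replicate 3.

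Symbols and positions came from GENCODE vM21 (GRCm38), for 15252 of 15651 identifiers, and promoter sequences from RefSeq (GRCm38.p6). limma 3.58.1 in R 4.3.3 was fitted to log2(TPM + 1), two-sided and with untrended eBayes, over genes that averaged 1 TPM or more in a group compared; a gene passed at an adjusted p (Benjamini-Hochberg, all genes tested) under 0.05. Fold changes on this scale understate changes of low genes. Scripts were tested on simulated data. Single genes had an exact permutation test.

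By the sample records, 1 mouse gave the vehicle and CCS1477 samples of a replicate number. Their deviations from the group means correlated at 0.539 to 0.669 (D/F) and 0.354 to 0.496 (T/F), against at most 0.141 between mice, so the numbers pair the samples. The main fits have no block, and blocked values are given where they change a call. Members, lists and alternatives were chosen with earlier results of these data known. Named outside the 8 genes were the other caspase and IAP genes in the table (a few are not reported here) and, per list, up to 2 genes each way with the smallest p among those passing in both genotypes; genes of similar pattern were to be named for members passing in both genotypes, and there was none. H3K27ac and other assays were not analysed here.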

Additional observations from a re-analysis of the deposited data

Results flagged for a closer look

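The response of *Casp8* went in opposite directions in the genotypes, which were given different doses. CCS1477 over DMSO was 0.713 to 0.985 within the 3 *D/F* mice and 1.06 to 1.15 within the 3 *T/F* mice. The difference, *T/F* minus *D/F*, was 0.39 on the log2 scale by limma (SE 0.15, unadjusted p 0.0236) and did not pass over all genes (adjusted p 0.9999, and 0.287 with the mouse as a block). Because *Casp8* was flagged from these same values, the unadjusted p adds no support. Such a pattern, with 3 mice one way and 3 the other, was seen in 321 of 15583 genes (2.06%). Leaving out a mouse moved the difference between 0.27, without *D/F* replicate 2, and 0.50, without *D/F* replicate 3. The *T/F* log2 fold change of 0.16 became 0.08 with libraries rescaled to a common median (limma, adjusted p 0.387), so its size depended on the scaling. The cause of the pattern was not tested.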

How the results depend on the processing

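With 3 mice a group and TPM alone, depth and counting error are unknown, and a p that misses the threshold does not show equality. Some calls depended on how the spread was estimated and some on the scaling of the libraries. The call of *Casp6* in *T/F* cells also depended on the filter and the pseudocount. The cause was not tested where none is named.

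With the mouse as a replicate block, 5 of the 8 genes passed in *D/F* cells in place of 0. Of all genes, 6098 (39.3%) passed there in place of 1805 (11.6%). The block changed no other call of the 8. For *T/F* against *D/F*, no paired analysis was possible because the genotypes share no mouse. In 1 shared fit of 4 groups, 5 of the 8 passed in *D/F* cells, against 31.9% of all genes (4940). In *T/F* cells 1 of the 8, *Xiap*, passed in that fit, against 24.3% of all genes (3713). The genotypes differed there in 20 genes with DMSO and 71 with CCS1477 in place of 5 and 5. With libraries rescaled to a common median, 1 of the 8 passed in *D/F* cells (*Cflar*), 2 in *T/F* cells (*Xiap*, *Cflar*) and 3 over both genotypes (*Casp6*, *Xiap*, *Cflar*), against 14.8%, 41.2% and 45.3% of all genes, and *Birc3* changed sign to -0.0508 in *T/F* cells and -0.0542 over both. With quantile normalization 2846 genes passed in *D/F* cells, 1552 higher and 1294 lower in place of 796 and 1009, and 9 genes between genotypes with DMSO; *Birc3* changed sign to 0.0795 in *D/F* cells, *Casp8* to 0.00370 over both genotypes, and *Cflar* to -0.0125 between genotypes with CCS1477. Above 2-fold, 0 of the 8 passed in *T/F* cells and 0 over both. A filter at 5 TPM gave 9 genes between genotypes with DMSO, and eBayes with a trend 11 with CCS1477.

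Leaving out a mouse gave 0 to 1 of the 8 genes in *D/F* cells, against 0 to 3739 genes, or 0% to 24.6% of all (0 without replicate 1 or 3). In *T/F* cells it gave 1 to 2 of the 8, against 3192 to 5122 genes, or 20.9% to 33.7% of all. Between genotypes it gave 4 to 9 genes with DMSO and 2 to 27 with CCS1477. These fits also carried some uncalled log2 values past 0. *Birc3* ranged from -0.115 to 0.0580 in *D/F* cells, -0.0162 to 0.0547 in *T/F* cells and -0.0285 to 0.0407 over both, and *Casp8* from -0.0879 to 0.0495 over both. The difference of responses ranged from -0.127 to 0.0449 for *Birc2*, -0.0288 to 0.144 for *Birc3* and -0.212 to 0.0120 for *Casp6*. Between genotypes with DMSO the ranges were -0.269 to 0.511 for *Birc3*, -0.0680 to 0.329 for *Casp6*, -0.402 to 0.120 for *Birc2*, -0.0425 to 0.0527 for *Casp8* and -0.0306 to 0.313 for *Xiap*. Between genotypes with CCS1477 they were -0.125 to 0.482 for *Birc3*, -0.0386 to 0.0824 for *Cflar*, -0.125 to 0.0293 for *Casp9* and -0.0723 to 0.180 for *Casp6*.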
